A study of Mus musculus with 9 samples.

Results

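This is an account of 10 germline genes in mouse embryonic stem cells: the X-linked homeobox genes Rhox5, Rhox6 and Rhox9, and the germ cell genes Dazl, Mael, Tex19.1, Asz1, Nanos3, Stk31 and Slc25a31. They were chosen by name from the 38940 genes of the expression table, and every one of the 10 has a row in it. Poly(A) RNA was sequenced from 9 libraries, 3 in each of 3 groups. The double KO libraries came from cells with Yap and Taz both deleted (Yap ∆/∆ Taz ∆/∆), the Taz KO libraries from cells with Taz deleted and Yap flanked by loxP sites (Yap f/f Taz ∆/∆), and the control libraries from cells with both genes flanked by loxP sites (Yap f/f Taz f/f). Yap and Taz, encoded by Yap1 and Wwtr1, are transcriptional co-activators restrained by the Hippo kinase pathway.

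Cells of all groups were grown on fibronectin in N2B27 medium with 0.4 µM PD0325901 (a MEK inhibitor), 3 µM CHIR99021 (a GSK3 inhibitor) and 4 ng/ml Lif. A tamoxifen-activated Cre driven by the CAG promoter was brought in on a piggyBac transposon, and recombination was induced with 500 nM 4-OHT, the active tamoxifen metabolite. The protocol is worded alike for every library, so the labels do not say whether control cells carried the Cre or received 4-OHT. Neither do they say whether lines were clonal, how long after induction RNA was taken, or whether a group's 3 libraries were grown as separate cultures. The p-values therefore measure the spread between libraries, which may be technical. The genotype field of the double KO libraries names the Taz KO genotype, and the grouping follows their titles and descriptions.

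Germline genes of this kind carry DNA methylation at their promoters in most somatic cells. DNA methyltransferases, the histone methyltransferase SETDB1 and the variant polycomb complex PRC1.6, which reads E-box and E2F sites through MGA-MAX and E2F6, are known to hold many of them silent. In stem cells kept in MEK and GSK3 inhibitors the genome is known to be poorly methylated, and a subset of germline genes is transcribed there. The Rhox cluster is a run of reproductive homeobox genes on the X chromosome that are used in gonads and placenta.

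The promoters of these genes differ in how many CG dinucleotides, the target of DNA methylation, they hold. Windows of 300 bases, running from 250 bases before to 50 bases after the RefSeq start (GRCm38.p6), were found for 8 of the 10 genes. Rhox6 and Rhox9 have none here. The 7 windows below are shown because Rhox5 and Nanos3 are the CG-poor ones, Mael and Slc25a31 hold both motifs searched, Tex19.1 and Stk31 hold one each, and Dazl is CG-rich with neither. Each is printed 5′ to 3′ along the gene's strand, and capitals mark CACGTG, the palindromic E-box, and TCCCGC, an E2F-type core searched on both strands, so that it can appear as GCGGGA. The motifs share no base with each other.
Rhox5, chrX:37754358-37754657, plus strand: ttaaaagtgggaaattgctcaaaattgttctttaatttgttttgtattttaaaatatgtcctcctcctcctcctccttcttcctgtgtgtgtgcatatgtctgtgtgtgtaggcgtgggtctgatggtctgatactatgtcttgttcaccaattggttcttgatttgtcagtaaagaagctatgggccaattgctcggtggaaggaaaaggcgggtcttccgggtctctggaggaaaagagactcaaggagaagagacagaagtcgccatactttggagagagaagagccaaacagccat
Nanos3, chr8:84176503-84176802, minus strand: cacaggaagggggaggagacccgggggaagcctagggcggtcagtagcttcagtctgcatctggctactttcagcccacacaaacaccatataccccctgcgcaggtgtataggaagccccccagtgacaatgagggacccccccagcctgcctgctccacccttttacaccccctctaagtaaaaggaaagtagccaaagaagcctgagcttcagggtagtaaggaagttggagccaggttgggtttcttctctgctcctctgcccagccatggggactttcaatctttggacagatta
Mael, chr1:166238695-166238994, minus strand: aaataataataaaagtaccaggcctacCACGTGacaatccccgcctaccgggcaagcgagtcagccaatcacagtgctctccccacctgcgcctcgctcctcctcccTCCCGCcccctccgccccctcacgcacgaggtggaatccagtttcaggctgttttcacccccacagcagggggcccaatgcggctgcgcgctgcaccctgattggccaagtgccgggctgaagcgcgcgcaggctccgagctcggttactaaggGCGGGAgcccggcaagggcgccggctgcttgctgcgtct
Slc25a31, chr3:40708621-40708920, plus strand: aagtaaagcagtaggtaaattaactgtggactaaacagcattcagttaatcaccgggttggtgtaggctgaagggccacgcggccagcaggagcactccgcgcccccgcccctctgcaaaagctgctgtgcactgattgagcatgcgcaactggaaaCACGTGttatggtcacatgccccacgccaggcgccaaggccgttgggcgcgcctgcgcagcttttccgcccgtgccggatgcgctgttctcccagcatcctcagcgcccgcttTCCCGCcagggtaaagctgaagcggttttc
Tex19.1, chr11:121145893-121146192, plus strand: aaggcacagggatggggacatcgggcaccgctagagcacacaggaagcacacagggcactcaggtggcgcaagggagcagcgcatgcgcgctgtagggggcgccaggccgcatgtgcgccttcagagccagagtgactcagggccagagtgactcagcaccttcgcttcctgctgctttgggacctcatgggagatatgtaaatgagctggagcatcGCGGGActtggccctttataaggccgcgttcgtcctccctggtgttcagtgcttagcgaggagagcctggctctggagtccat
Stk31, chr6:49395289-49395588, plus strand: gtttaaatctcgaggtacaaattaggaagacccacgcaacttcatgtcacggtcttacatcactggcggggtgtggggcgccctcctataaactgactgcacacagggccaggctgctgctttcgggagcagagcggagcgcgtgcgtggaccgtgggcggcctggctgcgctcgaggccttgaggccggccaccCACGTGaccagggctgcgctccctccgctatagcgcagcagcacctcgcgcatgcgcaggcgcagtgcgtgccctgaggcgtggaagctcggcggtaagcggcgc
Dazl, chr17:50293571-50293870, minus strand: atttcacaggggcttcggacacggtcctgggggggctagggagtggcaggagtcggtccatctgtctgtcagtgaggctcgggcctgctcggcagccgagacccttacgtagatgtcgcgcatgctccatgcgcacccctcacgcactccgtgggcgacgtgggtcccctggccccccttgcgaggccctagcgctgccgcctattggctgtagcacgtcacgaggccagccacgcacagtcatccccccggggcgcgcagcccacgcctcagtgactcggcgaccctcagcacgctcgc

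Rhox5 has 5 CG dinucleotides in its window and Nanos3 has 3, while the median over all 32851 promoter windows is 7 and the middle of the distribution, between its quartiles, runs from 3 to 20. Fewer CG dinucleotides than in Rhox5 stand in 38.0% of windows, and fewer than in Nanos3 in 23.3%. The other genes lie in the upper part of the distribution: Tex19.1 has 16, Asz1 17, Slc25a31 22, Mael 24, Dazl 28, and Stk31 29 and 28 in its 2 windows. The E-box is in the windows of Mael, Stk31 and Slc25a31, and in 7.15% of all windows. The E2F-type core is in those of Mael (2 copies), Tex19.1 and Slc25a31, and in 20.0% of all windows. Both motifs together occur in Mael and Slc25a31, and in 1.99% of all windows. A match only says that these letters stand in this window. The Rhox5 window lies at the RefSeq start, which is 50234 bases upstream of the gene model used by the annotation for its position, and the RefSeq start of Nanos3 lies 8665 bases downstream of its annotated gene start, so for both genes the window need not be the start used in these cells.

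**Figure D1:**
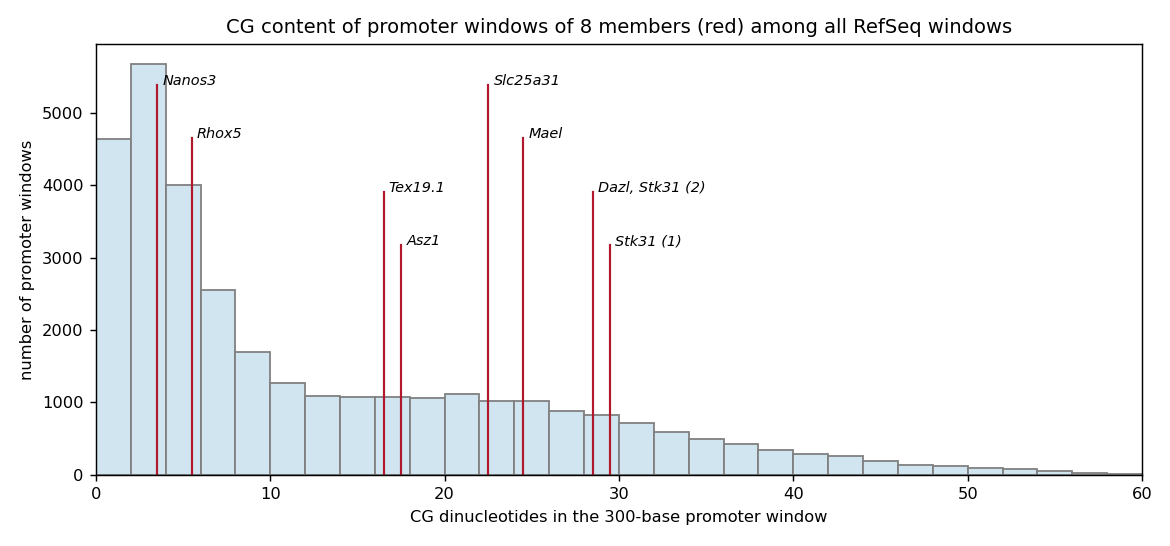
Number of 300-base RefSeq promoter windows (y axis) by their number of CG dinucleotides (x axis), over all 32851 windows as bars, with the windows of the 8 matched genes as red lines (the line heights carry no value). Nanos3 (3) and Rhox5 (5) lie below the median of 7, and the others lie between 16 and 29.

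Sequencing depth was even across groups. The deposited values are FPKM, read counts scaled to gene length. Between libraries they are scaled by a size factor, the median over genes of the ratio of reads to their geometric mean over libraries. Whole reads could be recovered from them, and these add up to 19139802 to 23992020 reads per library. Yap1, the first targeted gene, averaged 4.25 ± 0.334 FPKM in double KO, 18.3 ± 0.346 FPKM in Taz KO and 18.4 ± 0.573 FPKM in control libraries (SD, n = 3 each). Wwtr1, the gene of Taz, was at 13.9, 10.8 and 12.1 FPKM in double KO, Taz KO and control libraries and passed the test in no comparison (adjusted p = 0.22 for double KO and 0.684 for Taz KO, each against control, and 0.0657 between double KO and Taz KO, the last being 0.0191 with a replicate block and 0.0351 with quantile normalization). The table has 1 value per gene, so a deleted exon would not show, and this does not check the Taz deletion. The 8 embryonic stem cell markers examined, among them Pou5f1, Sox2 and Nanog, summed to 1316 to 1395 FPKM in double KO, 1493 to 1541 FPKM in Taz KO and 1512 to 1579 FPKM in control libraries.

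Of the 10 genes, 8 reached a mean of 1 FPKM over the 9 libraries and were tested together with 11674 genes in all, with limma on log2(FPKM + 0.5) and Benjamini-Hochberg adjustment, at an adjusted p under 0.05. Fold changes are on that scale, which understates the change of low genes. Asz1 and Slc25a31 were too low for this test. Rhox9 and Nanos3 passed only because they are high in double KO libraries (their control means are under 1 FPKM), so counts over the tested genes lean towards higher in double KO and are given as descriptions. In double KO against control libraries, Rhox6, Rhox9 and Nanos3 were higher and Rhox5 was lower, 4 of the 8 tested genes, while 25.3% of all tested genes were called (12.4% higher, 12.9% lower). In Taz KO against control libraries Rhox5 alone was called, and it was lower, where 1.28% of all tested genes were called (0.72% higher, 0.565% lower). In double KO against Taz KO libraries Rhox6, Rhox9 and Nanos3 were higher, where 13.9% of all tested genes were called (6.42% higher, 7.45% lower). Groups did not overlap for 6 of the 8 tested genes in double KO against control (45.6% of all tested genes), 2 in Taz KO against control (18.7%) and 5 in double KO against Taz KO (30.6%). The first 2 comparisons share the control libraries, and the third shares libraries with both.

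Libraries with the same replicate number deviated together from their group means (values in the section on processing), least clearly for replicate 1. Double KO replicate 1 correlated less with control replicate 1 (r = 0.192) than with control replicate 3 (0.274) or Taz KO replicate 3 (0.394). Calls made only with the block depend on this pairing by number. With the number as a block, 7 of the 8 tested genes were called in double KO against control (Dazl, Mael and Stk31 added; 52.4% of all tested genes), 4 in Taz KO against control (Rhox6, Mael and Tex19.1 added; 11.8% of all tested genes) and 5 in double KO against Taz KO (Rhox5 and Tex19.1 added; 42.4% of all tested genes). The median log2 fold change of the 8 tested genes was 0.57 in double KO against control, 0.08 in Taz KO against control and 0.41 in double KO against Taz KO, beside -0.02, 0.01 and -0.04 over all tested genes. Without Rhox9 and Nanos3, which passed the filter through their double KO values, the medians of the other 6 were 0.29, -0.08 and 0.28, so the Taz KO median changed sign.

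**Figure D2:**
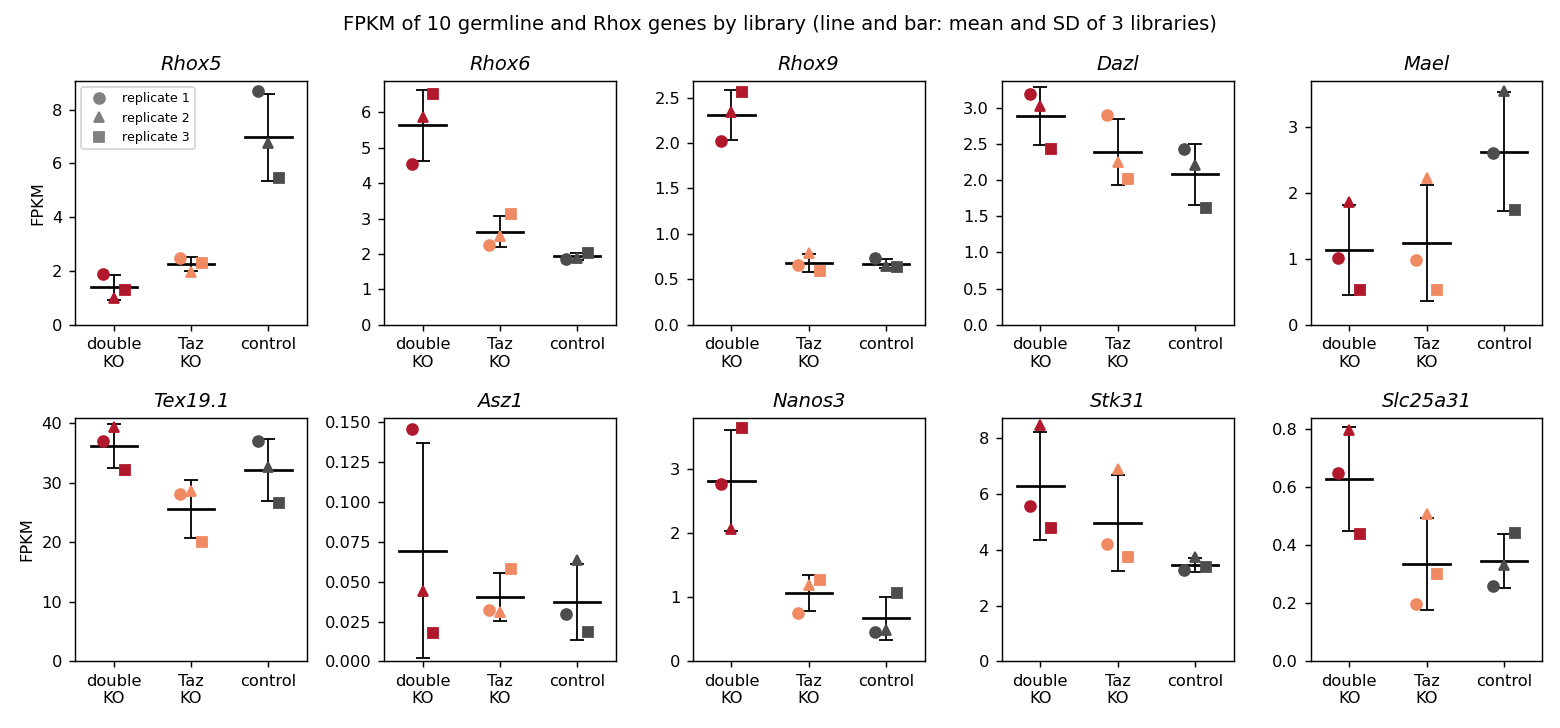
FPKM (y axis, starting at 0) of each of the 10 genes in every library, 1 panel per gene, with double KO, Taz KO and control from left to right; circles, triangles and squares are replicates 1, 2 and 3, lines are group means and bars are SDs of 3 libraries. Rhox5 is lowest in double KO and highest in control, Rhox6, Rhox9 and Nanos3 are highest in double KO, and for Mael replicate 2 is the highest of every group.

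**Figure D3:**
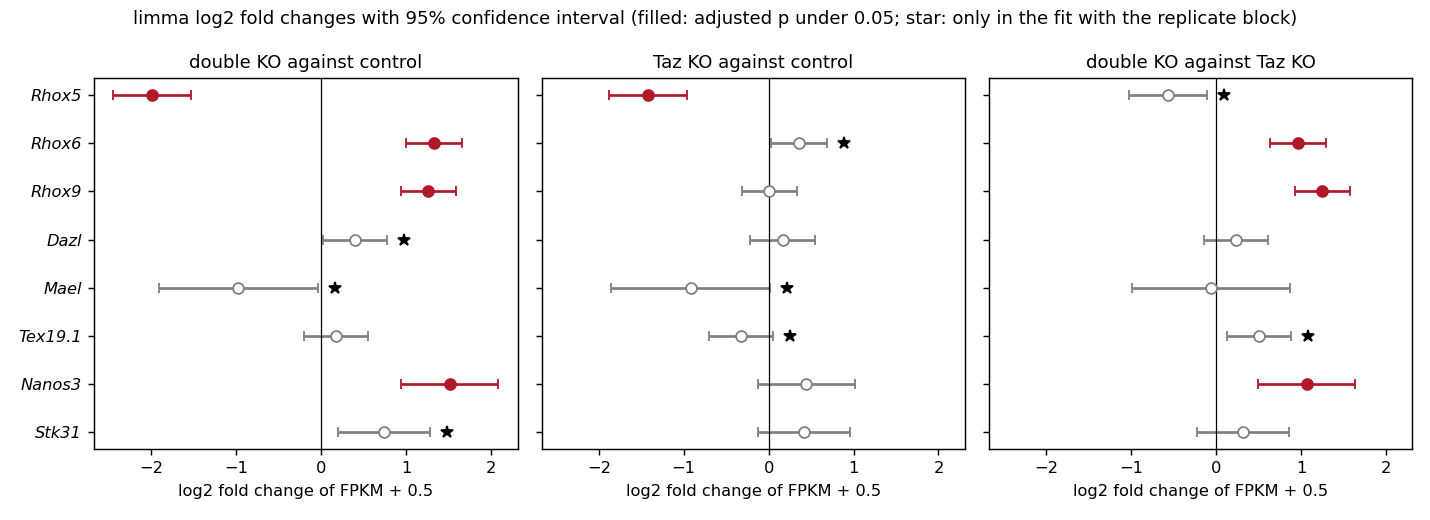
Log2 fold change of FPKM + 0.5 (x axis) of the 8 tested genes in double KO against control, Taz KO against control and double KO against Taz KO, with 95% confidence intervals of the limma fit; filled points passed an adjusted p of 0.05, and a star marks a gene that passed only with the replicate block. Rhox5 lies at -1.99 and Nanos3 at 1.51 in double KO against control, and Rhox9 lies at 0.01 in Taz KO against control.

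Rhox5, also called Pem, is the founding gene of the Rhox cluster, transcribed in stem cells, extraembryonic tissue and gonads. It lies at chrX:37804842-37808876 on the plus strand (GRCm38, ENSMUSG00000095180). Its FPKM was 1.88, 0.997 and 1.28 in double KO libraries, 2.49, 1.96 and 2.31 in Taz KO libraries, and 8.68, 6.76 and 5.46 in control libraries. The 3 groups did not overlap, with every double KO library below every Taz KO library and every Taz KO library below every control library. In recovered reads this was 68, 107 and 349 summed over the double KO, Taz KO and control libraries.

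Rhox5 averaged 1.39 ± 0.452 FPKM in double KO and 6.97 ± 1.62 FPKM in control libraries (SD, n = 3 each), which is 0.199 of the control level, with a log2 fold change of -1.99 ± 0.20 (SE) and an adjusted p of 0.000456. The call held in all 9 fits that left out 1 library, with adjusted p up to 0.00342. Taz KO libraries averaged 2.25 ± 0.269 FPKM (SD, n = 3), a log2 fold change of -1.42 ± 0.20 (SE) against control with an adjusted p of 0.0148 (0.00157 with the replicate block). That call was lost in 3 of 9 fits, without Taz KO replicate 3 (adjusted p = 0.0648), without control replicate 1 (0.083) and without control replicate 2 (0.0723). Between double KO and Taz KO libraries the difference was -0.57, which did not pass the test (adjusted p = 0.0974) but did with the replicate block (0.00967). Of the 363 tested genes on the X chromosome, none had a lower log2 fold change than Rhox5 in double KO against control or in Taz KO against control.

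Rhox6 and Rhox9, also known as Psx1 and Psx2, encode placental and germ cell homeobox proteins and sit in the same cluster. Rhox6 lies at chrX:37826910-37829857 on the plus strand (ENSMUSG00000006200), and Rhox9 at chrX:37899097-37901770 on the minus strand (ENSMUSG00000068048). Their transcripts are alike: over 882 aligned bases 92.0% are identical, and 11.6% of the 75-base stretches of Rhox6, the read length used, occur in Rhox9, against 4.31% of those of Rhox9 in Rhox6. Reads from such stretches could be counted for either gene or for none, so the split between the pair is uncertain. Rhox5 shares no 75-base stretch with either.

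Rhox6 stood at 4.54, 5.87 and 6.51 FPKM in double KO libraries, 2.27, 2.50 and 3.12 FPKM in Taz KO libraries, and 1.87, 1.88 and 2.04 FPKM in control libraries. The double KO libraries lay above all others, and the Taz KO libraries lay just above the control libraries without overlap. Its mean was 5.64 ± 1.01 FPKM in double KO, 2.63 ± 0.444 FPKM in Taz KO and 1.93 ± 0.0966 FPKM in control libraries (SD, n = 3 each). The log2 fold change was 1.33 ± 0.15 (SE) in double KO against control (adjusted p = 0.000578) and 0.97 ± 0.15 (SE) in double KO against Taz KO (adjusted p = 0.00527). In Taz KO against control it was 0.36, which did not pass (adjusted p = 0.33) except with the replicate block (adjusted p = 0.0472).

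Rhox9 had 2.02, 2.34 and 2.56 FPKM in double KO libraries, 0.655, 0.790 and 0.589 FPKM in Taz KO libraries, and 0.730, 0.646 and 0.637 FPKM in control libraries. Double KO libraries were again above all others, whereas Taz KO and control libraries overlapped. Summed over a group these are 389, 112 and 114 reads in double KO, Taz KO and control. Rhox9 rose in double KO against control (log2 fold change 1.26 ± 0.14 SE, adjusted p = 0.00067) and against Taz KO (1.25, adjusted p = 0.00179), and in Taz KO against control its log2 fold change was 0.01 (adjusted p = 0.996). Each of the 4 double KO calls of Rhox6 and Rhox9 held in all 9 fits that left out 1 library, and the Rhox9 calls also held when the filter was lowered to a mean of 0.1 FPKM.

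The ratio of Rhox6 to Rhox9, in FPKM, was 2.25, 2.51 and 2.54 in double KO libraries, 3.46, 3.16 and 5.30 in Taz KO libraries, and 2.56, 2.91 and 3.20 in control libraries. Rhox5 and Rhox6 changed places within the cluster. The ratio of Rhox5 to Rhox6, in FPKM, was 0.415, 0.170 and 0.197 in double KO, 1.10, 0.785 and 0.739 in Taz KO and 4.64, 3.60 and 2.68 in control libraries, with no overlap between groups. These ratios restate the changes above and were given no test.

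The rest of the Rhox cluster was near silent. Of 26 other Rhox genes listed and present in the table, 22 were at 0 in every library. Rhox1, the only one above a mean of 0.1 FPKM, had 0 to 7 reads per library, and averaged 0.256 FPKM in double KO, 0.142 FPKM in Taz KO and 0.269 FPKM in control libraries. With the lower filter its adjusted p was 0.897 in double KO against control, 0.861 in Taz KO against control and 0.673 in double KO against Taz KO. None of the other nonzero Rhox genes had more than 4 reads in a library, and at this depth no difference between groups could be seen in them. The 3 tested genes on each side of the cluster (Nkap, Ndufa1 and Rnf113a1 on one side, Zbtb33, Lamp2 and Cul4b on the other) had log2 fold changes between -0.49 and 0.34 in double KO against control, and none was called there or in Taz KO against control (in double KO against Taz KO, Zbtb33 was higher by 0.40, adjusted p = 0.0423). The median log2 fold change of the 363 tested X-linked genes was 0.00 in double KO against control and 0.03 in Taz KO against control.

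Trophectoderm is the extraembryonic lineage in which Rhox6 and Rhox9 are also used, and some of its markers moved in the same libraries. The 10 trophectoderm markers examined summed to 76.7 to 130 FPKM in double KO, 50.4 to 70.9 FPKM in Taz KO and 46.7 to 55.5 FPKM in control libraries. Of 6 tested markers 3 rose in double KO against control, namely Krt8 (log2 fold change 0.98, adjusted p = 0.00348), Gata2 (1.86, adjusted p = 0.0102) and Tfap2a (0.56, adjusted p = 0.0306). This is 50% of the 6, beside 25.3% of all tested genes. Krt7 stood at 1.42 FPKM in double KO and 3.30 FPKM in control libraries (-1.05, adjusted p = 0.127), which passed with the replicate block (0.000941), where 4 markers were higher and 1, Krt7, was lower (83.3% of the 6, beside 52.4% of all tested genes). The Tfap2a call was lost without double KO replicate 1 or 3 or without any 1 control library (adjusted p up to 0.102), with no filter (0.0715) and with quantile normalization (0.0736). Of the lineage regulators, Cdx2, Elf5 and Gata3 stayed low, with group means in double KO, Taz KO and control libraries of 0.378, 0.0671 and 0.206 FPKM for Cdx2, 0.0133, 0.00740 and 0.00256 FPKM for Elf5, and 0.00734, 0.0120 and 0.0770 FPKM for Gata3. Hand1 was low as well (0.0447, 0.0290 and 0.0587 FPKM). Eomes, another regulator, was not low, at 8.38, 8.23 and 6.68 FPKM in the same order. In double KO against control Eomes had a log2 fold change of 0.30 (adjusted p = 0.0912, and 0.0212 with the replicate block). Krt18 had 0.48 there (adjusted p = 0.403, and 0.123 with the block). The part of such cells in the Rhox6 and Rhox9 values was not tested, and in these bulk libraries more cells expressing a gene and more RNA per cell cannot be told apart.

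Nanos3 encodes an RNA-binding protein that protects primordial germ cells, the embryonic founders of sperm and eggs, from death. It lies at chr8:84173731-84185217 on the minus strand (ENSMUSG00000056155), and its gene model spans Mir181c and Mir181d on the same strand. Nanos3 was measured at 2.76, 2.06 and 3.63 FPKM in double KO libraries, 0.753, 1.19 and 1.27 FPKM in Taz KO libraries, and 0.460, 0.494 and 1.06 FPKM in control libraries. These values rest on 132 reads summed over the double KO, 49 over the Taz KO and 31 over the control libraries. Every double KO library lay above every other library, and the Taz KO and control libraries overlapped, control replicate 3 being the high control.

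Nanos3 averaged 2.82 ± 0.788 FPKM in double KO, 1.07 ± 0.278 FPKM in Taz KO and 0.671 ± 0.336 FPKM in control libraries (SD, n = 3 each). Against control the log2 fold change was 1.51 ± 0.25 (SE) in double KO (adjusted p = 0.00374, called in all 9 fits that left out 1 library) and 0.44 in Taz KO (adjusted p = 0.564). Double KO libraries exceeded Taz KO libraries by 1.07 ± 0.25 (SE), with an adjusted p of 0.0272. This last call was lost without double KO replicate 1, double KO replicate 3, Taz KO replicate 1 or Taz KO replicate 3, with adjusted p up to 0.109, and with no filter on low values (adjusted p = 0.0592).

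Chromosome 8 as a whole was higher in both knockout groups, which bears on Nanos3. The median log2 fold change of its 671 tested genes was 0.30 in double KO against control, 0.35 in Taz KO against control and -0.03 in double KO against Taz KO. Nanos3 lay 1.21 above that median in double KO against control, 0.09 above it in Taz KO against control and 1.10 above it in double KO against Taz KO. The part of chromosome 8 in the Nanos3 values was not tested beyond this subtraction. Chromosome 6, which holds Stk31 and Asz1, had medians of 0.19 in double KO against control, 0.21 in Taz KO against control and -0.01 in double KO against Taz KO, over 522 tested genes. Chromosome 14 had medians of 0.11 in double KO and 0.10 in Taz KO, each against control, over 398 tested genes. The Y chromosome was lower, with -0.74 in double KO and -0.71 in Taz KO, each against control, over 5 tested genes.

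**Figure D4:**
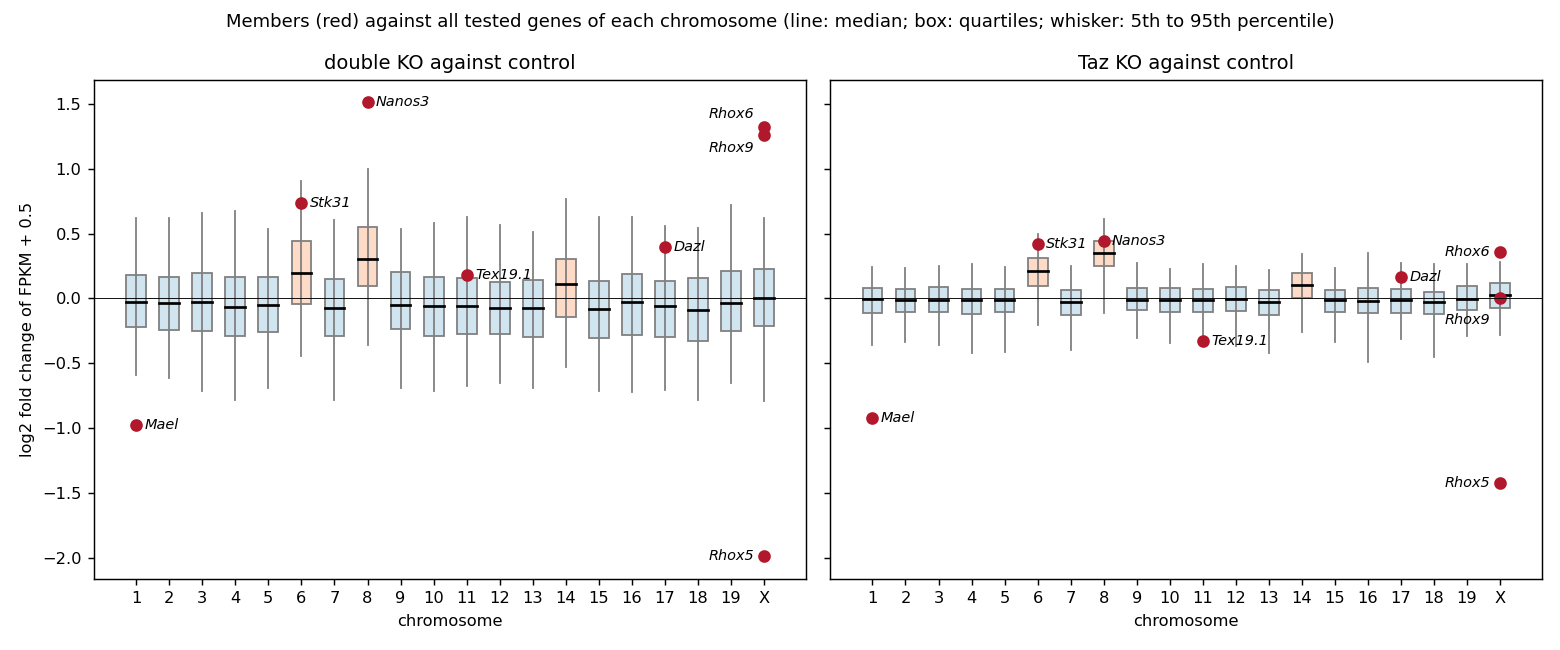
Log2 fold change of FPKM + 0.5 (y axis) by chromosome (x axis) in double KO against control and in Taz KO against control; boxes span the quartiles of all tested genes of a chromosome, lines are medians, whiskers run from the 5th to the 95th percentile, orange boxes are chromosomes 6, 8 and 14, and red points are the 8 tested germline and Rhox genes. The chromosome 8 median stands at 0.30 and 0.35, with Nanos3 at 1.51 in double KO and 0.44 in Taz KO.

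Stk31, a Tudor domain protein with a kinase-like domain made in testis, lies at chr6:49395604-49469501 on the plus strand (ENSMUSG00000023403) and overlaps a pseudogene, Gm17060, on the opposite strand. It was at 5.58, 8.46 and 4.77 FPKM in double KO libraries, 4.22, 6.90 and 3.75 FPKM in Taz KO libraries, and 3.26, 3.75 and 3.39 FPKM in control libraries. Double KO and control libraries did not overlap, and replicate 2 was the high library of each group. The log2 fold change in double KO against control was 0.74 ± 0.24 (SE), just short of the threshold (adjusted p = 0.0516). It passed with the replicate block (0.00206) and with a pseudocount of 0.1 FPKM (0.0498), and also without double KO replicate 3 (0.0483) or without Taz KO replicate 2 (0.0185). Stk31 lay 0.54 above the chromosome 6 median in double KO against control and 0.21 above it in Taz KO against control, where its own value was 0.42 (adjusted p = 0.562).

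Mael and Asz1 work in the piRNA pathway, in which small RNAs silence transposons in the male germ line. Mael lies at chr1:166201201-166238747 on the minus strand (ENSMUSG00000040629), and Asz1, a scaffold of germ granules, at chr6:18050964-18109061 on the minus strand (ENSMUSG00000010796). Mael showed 1.01, 1.86 and 0.528 FPKM in double KO libraries, 0.977, 2.22 and 0.528 FPKM in Taz KO libraries, and 2.60, 3.53 and 1.73 FPKM in control libraries. Within each group replicate 2 was highest and replicate 3 lowest, and the ranges of both knockout groups overlapped that of control.

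Mael had a log2 fold change of -0.98 ± 0.41 (SE) in double KO against control (adjusted p = 0.112) and of -0.92 ± 0.41 (SE) in Taz KO against control (adjusted p = 0.401), neither past the threshold. With the replicate block both passed, at adjusted p of 0.000674 and 0.00536. Compared number by number, Mael was lower than control in 3 of 3 double KO libraries, by log2 differences of -1.04, -0.77 and -1.12, and in 3 of 3 Taz KO libraries, by -1.07, -0.57 and -1.12. Double KO and Taz KO libraries differed by -0.06 (adjusted p = 0.941). Asz1 was barely detected, with 9, 3 and 1 reads in double KO, 2, 2 and 3 reads in Taz KO and 2, 4 and 1 reads in control libraries, and no difference was detectable at this depth (exact permutation test, two-sided, p = 0.7 for double KO and 0.8 for Taz KO, each against control, and 0.8 between double KO and Taz KO; 3 libraries against 3 cannot go below 0.1).

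Tex19.1, which restrains retrotransposons in germ cells and is also made in pluripotent cells and placenta, was the most abundant of the 10 genes in every group. It lies at chr11:121146143-121148319 on the plus strand (ENSMUSG00000039329), and shares no 75-base stretch with its neighbour Tex19.2. Its values were 37.0, 39.4 and 32.0 FPKM in double KO libraries, 28.1, 28.6 and 20.0 FPKM in Taz KO libraries, and 37.0, 32.7 and 26.6 FPKM in control libraries. Taz KO had the lowest mean, and it did not overlap double KO, while double KO and control overlapped. Means were 36.1 ± 3.75 FPKM in double KO, 25.6 ± 4.80 FPKM in Taz KO and 32.1 ± 5.23 FPKM in control libraries (SD, n = 3 each). No comparison of Tex19.1 passed the test (log2 fold change 0.18 with adjusted p = 0.462 in double KO against control, -0.33 with 0.486 in Taz KO against control, 0.50 with 0.0769 in double KO against Taz KO). With the replicate block, Taz KO against control passed (adjusted p = 0.0228) and so did double KO against Taz KO (adjusted p = 0.00145), which also passed without Taz KO replicate 2 (adjusted p = 0.0486).

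The tested genes whose profile over the 9 libraries was most like that of Tex19.1, by the root mean square difference of their centred log2(FPKM + 0.5) values, were Ankrd45 (0.0863 log2 units), H2-T22 (0.0899), Bag3 (0.0917), C1qtnf6 (0.111) and Urah (0.113). The median difference over all tested genes was 0.359 log2 units.

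Dazl, an RNA-binding protein that controls translation in germ cells, lies at chr17:50279395-50293636 on the minus strand (ENSMUSG00000010592). Dazl had 3.19, 3.02 and 2.43 FPKM in double KO libraries, 2.90, 2.25 and 2.02 FPKM in Taz KO libraries, and 2.42, 2.21 and 1.61 FPKM in control libraries. Double KO libraries lay above control libraries by a narrow margin, and Taz KO libraries overlapped both. Its log2 fold change in double KO against control was 0.40 ± 0.17 (SE), which did not pass (adjusted p = 0.114) but did with the replicate block (0.0063). In Taz KO against control it was 0.16 (adjusted p = 0.851) and in double KO against Taz KO 0.23 (adjusted p = 0.384).

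Slc25a31, the ADP/ATP carrier used by male germ cells, lies at chr3:40708855-40726096 on the plus strand (ENSMUSG00000069041). It was present at 0.648, 0.797 and 0.439 FPKM in double KO libraries, 0.197, 0.508 and 0.301 FPKM in Taz KO libraries, and 0.258, 0.333 and 0.444 FPKM in control libraries. The groups overlapped, and the sums were 68 reads in double KO, 35 in Taz KO and 36 in control libraries. The exact permutation test (two-sided) gave p = 0.2 for double KO and 1 for Taz KO, each against control, and 0.2 between double KO and Taz KO. This test cannot go below 0.1 with 3 libraries against 3, so it could not reach the threshold. With the filter at a mean of 0.1 FPKM Slc25a31 entered the limma test and was called in no comparison.

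Ranked by mean FPKM, a scale per transcript length, the order in double KO libraries was Tex19.1, Stk31, Rhox6, Dazl, Nanos3, Rhox9, Rhox5, Mael, Slc25a31 and Asz1. In Taz KO libraries it was Tex19.1, Stk31, Rhox6, Dazl, Rhox5, Mael, Nanos3, Rhox9, Slc25a31 and Asz1, and in control libraries Tex19.1, Rhox5, Stk31, Mael, Dazl, Rhox6, Rhox9, Nanos3, Slc25a31 and Asz1. Rhox5 thus moved between rank 7 in double KO, rank 5 in Taz KO and rank 2 in control libraries. Neighbours whose libraries overlapped were Stk31 with Rhox6, Dazl with Nanos3, Nanos3 with Rhox9, Rhox5 with Mael and Mael with Slc25a31 in double KO libraries. In control libraries they were Stk31 with Mael, Mael with Dazl, Dazl with Rhox6 and Rhox9 with Nanos3. In Taz KO libraries every neighbouring pair between Rhox6 and Rhox9 overlapped.

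The same tests were read for related gene lists. A list of 62 other germline genes known to be silenced by DNA methylation had 24 tested members. Of these, 3 rose and 1 fell in double KO against control (6 and 7 with the replicate block), and their median log2 fold change was 0.08. The share called, 16.7% of the 24 and 54.2% with the block, stands beside 25.3% and 52.4% over all tested genes, so it was not above the background in the first and was close to it in the second. The cohesin subunit gene Stag3 rose (0.32, adjusted p = 0.0117), as did Syce1 of the synaptonemal complex (0.87, adjusted p = 0.0091) and Tex13, whose control mean of 0.0533 FPKM let it pass the filter only through the knockout groups (1.80, adjusted p = 0.0046). Tdrd12, a piRNA pathway gene, fell to 18.3 ± 2.65 FPKM in double KO, against 44.2 ± 1.22 FPKM in control libraries (SD, n = 3 each; log2 fold change -1.26, adjusted p = 0.000339).

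In Taz KO against control Stag3 (0.62, adjusted p = 0.00918) and Tex13 (2.45, adjusted p = 0.012) of that list rose, and none fell (7 rose and 2 fell with the replicate block). The share called was 8.33% of the list beside 1.28% of all tested genes, and 37.5% beside 11.8% with the block. Tex13 entered the test only through the knockout groups, so these shares lean towards higher and are given as descriptions. The Tex13 call was lost without Taz KO replicate 3, control replicate 1 or control replicate 2 (adjusted p up to 0.0809), and the Stag3 call without control replicate 1 (0.0604). Between double KO and Taz KO libraries 3 were lower in double KO and none higher (9 and 2 with the replicate block), Tdrd12 by a log2 fold change of -0.80 (adjusted p = 0.00538) and Stag3 by -0.30 (adjusted p = 0.0247) among them. Here 12.5% of the list was called beside 13.9% of all tested genes, and 45.8% beside 42.4% with the block. That Stag3 call was lost without replicate 1 or 3 of double KO or of Taz KO, or without control replicate 1 (adjusted p up to 0.0908), and with quantile normalization (0.0805).

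Among 14 tested regulators of primordial germ cells, 5 rose and 4 fell in double KO against control libraries, which is 64.3% of the list beside 25.3% of all tested genes. The list was chosen with earlier results of these data known, so this share is a description. Several calls lay near the threshold, among them Prdm1 (0.33, adjusted p = 0.0432) and Ifitm1 (0.53, adjusted p = 0.0475), which rose. With the filter at a mean of 0.1 FPKM, 2 rose and 3 fell of 15 tested. Of the listed regulators, Nanog, which fell, and Pou5f1, which was not called, are also among the stem cell markers. Those that rose included the transcription factor gene Tfap2c (log2 fold change 0.78, adjusted p = 0.000578), the maternal factor Dppa3 (1.11, adjusted p = 0.0306) and the transcriptional regulator gene Prdm14 (0.28, adjusted p = 0.0423). Dppa3 lies on chromosome 6, and its call was lost without double KO replicate 1 or 3 or without any 1 control library (adjusted p up to 0.0962), and with no filter (0.0662). The Prdm14 call held only without Taz KO replicate 2 or control replicate 3, with adjusted p up to 0.125 in the other such fits, and was lost with no filter (0.0609), the filter at 0.1 FPKM (0.0518) or a constant prior variance (0.0512). Those that fell included the receptor gene Kit (-0.71, adjusted p = 0.000484), Dnd1, whose RNA-binding protein is needed for germ cell survival (-0.73, adjusted p = 0.00385), and Lin28a, which blocks the maturation of let-7 microRNAs (-0.35, adjusted p = 0.0338). The Lin28a call held only without double KO replicate 1, double KO replicate 3 or Taz KO replicate 2 (adjusted p up to 0.118 otherwise), and was lost with no filter (0.0547) and with quantile normalization, where its log2 fold change was -0.17 (adjusted p = 0.11). None of the 14 was called in Taz KO against control by limma or by voom on the recovered reads, where 1 had an unadjusted p under 0.05. With the replicate block 1 was called there, Dppa3 (0.55, adjusted p = 0.0127), which is 7.14% of the list beside 11.8% of all tested genes. Set against Taz KO, double KO libraries had 2 higher and 3 lower (6 and 5 with the replicate block). The shares are 35.7% beside 13.9% of all tested genes, and 78.6% beside 42.4% with the block.

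The silencing machinery of germline genes was tested whole, with all 29 listed genes above the filter. Of these 29 genes 3 rose and 6 fell in double KO against control (4 and 11 with the replicate block), with a median log2 fold change of -0.11. That is 31.0% of the list, and 51.7% with the block, both near the 25.3% and 52.4% called over all tested genes. The cofactor gene Dnmt3l, which stimulates the de novo methyltransferases, fell to 12.3 ± 3.10 FPKM in double KO, against 82.6 ± 11.9 FPKM in control libraries (SD, n = 3 each; log2 fold change -2.72, adjusted p = 0.000203). Dnmt3b, one of those methyltransferases, fell by 0.61 (adjusted p = 0.0103) and Wdr5, a shared subunit of PRC1.6 and of histone methyltransferase complexes, by 0.78 (adjusted p = 0.00602). The PRC1.6 genes Rybp (0.36, adjusted p = 0.0105) and Mga (0.24, adjusted p = 0.0314) rose, as did Zfp42, a zinc finger gene that is also among the stem cell markers (0.70, adjusted p = 0.00866). Other PRC1.6 genes leaned lower without being called: L3mbtl2 (-0.38, adjusted p = 0.0592), Ring1 (-0.32, 0.0825), Rnf2 (-0.28, 0.0535) and Pcgf6 (-0.13, 0.511). E2f6 (-0.02, adjusted p = 0.903) and Max (0.08, 0.62) were not called either. Rybp lies on chromosome 6 and Zfp42 on chromosome 8. Rybp was not called without control replicate 1 (adjusted p = 0.0514), and Mga was called only without double KO replicate 2, Taz KO replicate 1 or Taz KO replicate 2 (up to 0.124 otherwise).

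In Taz KO against control none of the 29 passed with limma or with voom, 4 had an unadjusted p under 0.05, and 6 were called with the replicate block (20.7% beside 11.8% of all tested genes). Dnmt3l was at 58.7 ± 15.3 FPKM in Taz KO libraries (SD, n = 3; log2 fold change against control -0.52, adjusted p = 0.4). In double KO against Taz KO 2 fell and none rose (14 and 1 with the replicate block), Dnmt3l with -2.20 (adjusted p = 0.00138). These are 6.90% of the list beside 13.9% of all tested genes, and 51.7% beside 42.4% with the block. Of 8 tested genes of DNA demethylation and opposing factors, Dppa2 alone rose in double KO against control (0.53, adjusted p = 0.0419) and none fell (12.5% beside 25.3% of all tested genes). With the replicate block 2 rose and 1 fell (37.5% beside 52.4% of all tested genes), and with the filter at a mean of 0.1 FPKM none was called. The Dppa2 call held only without double KO replicate 2, Taz KO replicate 2 or Taz KO replicate 3 (adjusted p up to 0.126 otherwise), and was lost with no filter (0.0822). None of these 8 was called in Taz KO against control, where 0 had an unadjusted p under 0.05, or in double KO against Taz KO, where 3 had one, by limma or by voom. With the replicate block 2 were higher and 1 was lower in double KO than in Taz KO (37.5% beside 42.4% of all tested genes), and still none was called in Taz KO against control.

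**Figure D5:**
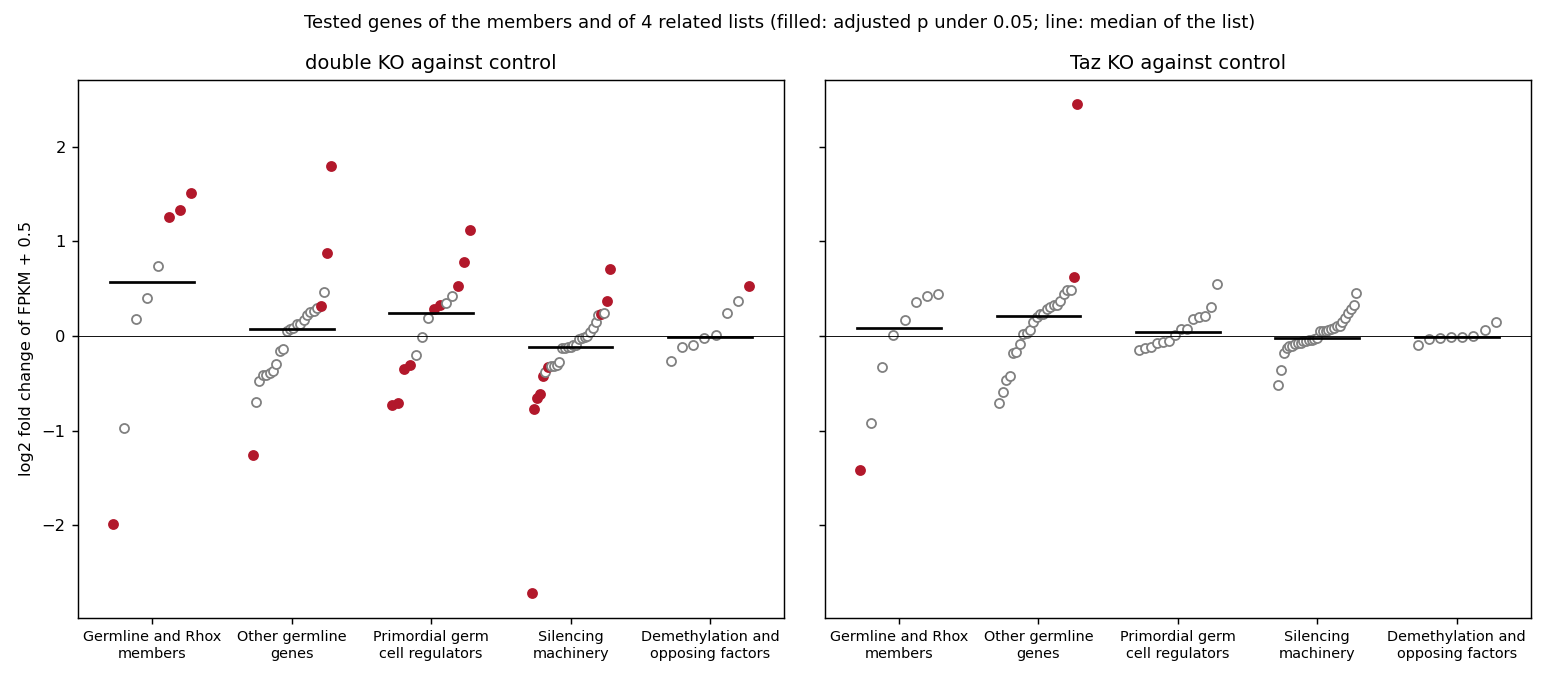
Log2 fold change of FPKM + 0.5 (y axis) of the 8 tested germline and Rhox genes and of the tested genes of 4 related lists, in double KO against control and in Taz KO against control; each point is a gene, filled where the adjusted p was under 0.05, and lines are list medians. Dnmt3l at -2.72 is the lowest point of the silencing machinery in double KO, and no gene of that list is filled in Taz KO.

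Other cell types were looked for by their markers. Of the 8 embryonic stem cell markers 1 rose and 3 fell in double KO against control libraries (50%, beside 25.3% of all tested genes): Zfp42 rose, and Klf4 (-0.72, adjusted p = 0.0146), Sox2 (-0.33, adjusted p = 0.0148) and Nanog (-0.31, adjusted p = 0.0463) fell. Sox2 was not called without double KO replicate 3 or control replicate 1 (adjusted p up to 0.0657), and Nanog was called only without Taz KO replicate 2 or 3 (up to 0.135 otherwise). Nanog was also not called with no filter (0.0988), the filter at 0.1 FPKM (0.0632) or a constant prior variance (0.0516). With quantile normalization none of these 3 was lower past the threshold: Klf4 had -0.52 (adjusted p = 0.139), Sox2 -0.10 (0.568) and Nanog -0.04 (0.693). Primitive endoderm markers summed to 25.2 to 29.0 FPKM in double KO, 21.0 to 29.0 FPKM in Taz KO and 17.8 to 23.0 FPKM in control libraries, with Lama1 higher in double KO than in control (0.53, adjusted p = 0.024; lost without double KO replicate 3, control replicate 1 or control replicate 3, up to 0.0891). Lama1 made up most of that sum, with a mean of 24.6 FPKM in double KO libraries. Sox7 of the same list was at 0.0330 FPKM in double KO, 0.232 FPKM in Taz KO and 0.343 FPKM in control libraries, under the filter, and with the filter at 0.1 FPKM it was lower in double KO than in control (-0.65, adjusted p = 0.0207). Fibroblast markers summed to 3.17 to 10.9 FPKM in double KO, 1.77 to 5.89 FPKM in Taz KO and 2.15 to 4.12 FPKM in control libraries, with Dcn, Lum and Postn at 0 in every library. Thy1 made up most of that sum, with means of 5.87 FPKM in double KO, 2.98 FPKM in Taz KO and 2.72 FPKM in control libraries. Its log2 fold change was 0.87 in double KO against control (adjusted p = 0.202, and 0.00267 with the replicate block). Against Taz KO it was 0.83 (adjusted p = 0.269, and 0.00484 with the block). Markers of the 2-cell-like state, in which some germline genes are also transcribed, summed to 0.186 to 0.277 FPKM in double KO, 0.147 to 0.204 FPKM in Taz KO and 0.173 to 0.239 FPKM in control libraries, and those ranges overlapped.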

How the data were processed

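RNA-seq libraries of 9 mouse embryonic stem cell samples, 3 per group, were analysed from the FPKM values that the authors deposited for 38940 genes. Per the submitters' processing notes, reads were processed with TopHat2 2.1.1, HTSeq 0.6.1 and DESeq2 on mouse build mm10; per the labels' protocols, libraries were poly(A)-enriched and strand-directional. How the tools were set is not given in the sources used here.

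Once each library's own scale was divided out, the FPKM values of a gene were whole multiples of 1 step (tolerance 0.001). This held for all 24621 genes above 0 and gave whole reads per library, which served for depth and for an added check with voom. The library scales matched the inverse of median-of-ratios size factors computed from these reads. Genes with a mean of at least 1 FPKM over the 9 libraries (11674) entered a test on log2(FPKM + 0.5) by limma (version 3.58.1, R version 4.3.3), in a group means model over all 9 libraries with a trended prior and Benjamini-Hochberg adjustment, two-sided, at an adjusted p under 0.05. The test was run on simulated data beforehand. Asz1 and Slc25a31, under the filter, were tested by exact permutation. Values for Rhox1 and Sox7, also under it, come from limma with the filter lowered to a mean of 0.1 FPKM. Same-numbered libraries of different groups had correlated deviations from their group means (r between 0.192 and 0.711 in 9 pairs, against -0.688 to 0.394 in 18 pairs with different numbers), so the number was taken to pair them and a fit with it as a block was run beside the unblocked one; the labels do not say what the number marks. FPKM values come from 19139802 to 23992020 reads per library, and low genes rest on few of them.

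The 10 genes and the lists were chosen with earlier results of these data known. Beside all 10 genes, other Rhox genes above a mean of 0.1 FPKM, Yap1 and Wwtr1 were named, with up to 3 called genes per direction of each list in double KO against control, then in Taz KO against control, by adjusted p, and the 5 genes most like Tex19.1. Genes named outside this rule (the neighbours of the Rhox cluster, single marker genes and some genes of the lists) were chosen after their values were seen. Positions come from GENCODE M21 on GRCm38, and promoter windows from RefSeq on GRCm38.p6. Another pseudocount, filter, normalization or prior, the block, voom, the removal of chromosomes 6, 8, 14 and Y, and leaving out each library were the alternatives.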

Additional observations from a re-analysis of the deposited data

How the results depend on the processing

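With the replicate block the calls over all tested genes were 6112 in place of 2948 for double KO against control, 1381 in place of 150 for Taz KO against control and 4947 in place of 1620 for double KO against Taz KO; the germline and Rhox genes called were 7 in place of 4, 4 in place of 1 and 5 in place of 3. The block changed no other call of the 10 genes than those given with them. Without the genes of chromosomes 6, 8, 14 and Y, 63 genes were called in Taz KO against control. Leaving out 1 library at a time gave 1505 to 3568, 11 to 230 and 482 to 2648 calls over all tested genes in the 3 comparisons, and 4 to 5, 0 to 1 and 2 to 4 calls among the 10 genes; the 0 arose without Taz KO replicate 3, control replicate 1 or control replicate 2. The cause was not tested. Among log2 fold changes that passed no test, these fits turned some signs: in Taz KO against control the ranges were -0.061 to 0.061 for Rhox9, -0.021 to 0.018 for Yap1, -0.12 to 0.096 for Wdr5, -0.0068 to 0.29 for Dppa2, -0.050 to 0.036 for Sox2 and -0.0040 to 0.17 for Nanog; in double KO against Taz KO -0.38 to 0.32 for Mael; and in double KO against control -0.053 to 0.14 for Urah. The voom fit, chosen after seeing the data, changed no call of the 10 genes. A planned quasi-likelihood count test was not run. Depth limits Asz1, Slc25a31 and Nanos3 most, with 1 to 52 reads per library.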
